A study of Rattus norvegicus with 30 samples.

Results

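The effect of dietary lipoic acid in aged liver was read from 14 of the 30 arrays of the study: 6 from old animals that received lipoic acid (old LA) and 8 from old animals that did not (old control). They were chosen by the group named in their titles. Every animal was a male Fischer 344 rat, an inbred strain used in ageing research, kept on the purified diet AIN-93M under modified pair-feeding for 2 weeks. Old animals were 24 months of age and young ones 3 months, and the diet of the LA groups held 0.2% of R-α-lipoic acid by weight. The study lost 2 old LA animals during feeding, so numbers 4 and 6 are missing from that group, and the survivors are the animals described. Liver RNA (median lobe) of every animal was measured on a separate Affymetrix whole-genome rat array, and the young animals (8 control, 8 LA) serve here as a second, separate comparison.

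Lipoic acid is a sulphur-containing cofactor that is bound covalently to the mitochondrial 2-oxoacid dehydrogenase complexes and the glycine cleavage system, and it is also sold as a supplement. In liver, a molecular clock sets the daily rhythm of many metabolic genes: the activators Bmal1 and Clock (or Npas2) drive the Per, Cry and Rev-erb (Nr1d1, Nr1d2) repressors and the transcription factors Dbp, Tef and Hlf, and the Rev-erb proteins in turn repress Bmal1. Synthesis of fatty acids, which liver carries out after feeding, is controlled by SREBP-1c, ChREBP and thyroid hormone, and Insig proteins hold the SREBP precursors in the endoplasmic reticulum. The sources used here do not say at what time of day livers were taken or when the animals last ate.

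The values are log2 intensities after GCRMA, and 1 log2 unit is a 2-fold difference. Of the 14 old arrays, 2 stood apart. The root mean square distance of an array from the mean of the rest of its group, over 10869 genes, was 1.19 for old control 5 and 0.85 for old LA 2, against 0.337 to 0.506 for the other old arrays and 0.218 to 0.301 for the young ones. The median SD of a gene was 0.306 in old control and 0.250 in old LA animals, and 0.173 and 0.177 in the young groups. The fit therefore weighted each array by its own scatter, and old control 5 received a weight of 0.11 and old LA 2 of 0.28, where the other old arrays had 0.75 to 2.11. Albumin (Alb), the main plasma protein made by hepatocytes, was measured at 16.89 to 17.00 in old control and 16.76 to 17.03 in old LA animals. Differences are LA minus control from that weighted fit ± SE, and may depart from the difference of plain means. In bulk tissue, fewer cells of a type and less RNA per cell cannot be told apart. Each array is 1 animal, so the p-values measure the spread between these animals.

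In old liver, LA was accompanied by lower RNA of the clock repressor Per2 and of the lipogenic genes Acaca and Mid1ip1, and by higher RNA of the cytochrome P450 Cyp3a9 and the SREBP regulator Insig2. Limma called 30 of 10869 genes (0.276%) at a Benjamini-Hochberg adjusted p under 0.05. Of these, 6 (0.0552%) were higher and 24 (0.221%) lower with LA, and 8 differed by more than 2-fold. At an unadjusted p under 0.05 there were 1468 genes (13.5%), 720 higher (6.62%) and 748 lower (6.88%). The adjusted p of Cyp3a9 was 0.00544, while those of the other called genes lay between 0.0391 and 0.0482, just inside the threshold.

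The number of calls depended on single animals and on the weights, as the plot of calls by setting shows. Without old control 1 limma called 149 genes and without old control 7 159, whereas without old control 2, 3, 4, 6 or 8, or old LA 3, 7 or 8, Cyp3a9 alone was called. The count was 4 without old LA 1, 13 without old LA 2, 30 without old control 5, and 1 without old control 5 and old LA 2 together. With equal weights limma called 0 genes (800 at an unadjusted p under 0.05, lowest adjusted p 0.236), and the exact rank test also called 0 (856 at an unadjusted p under 0.05, lowest adjusted p 0.284). A limma fit with the replicate number as a block called 0 as well (1179 at an unadjusted p under 0.05). That fit left out old controls 4 and 6, which have no old LA animal of the same number, so it did not use the same arrays. When all 30 arrays shared 1 estimate of the spread, 192 genes (1.77%) passed, 77 higher and 115 lower, among them 27 of the 30. The direction of the 30 genes was the same under all 25 alternatives. These reuse the arrays by which the genes were called, so the equal direction does not support the calls.

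**Figure D1:**
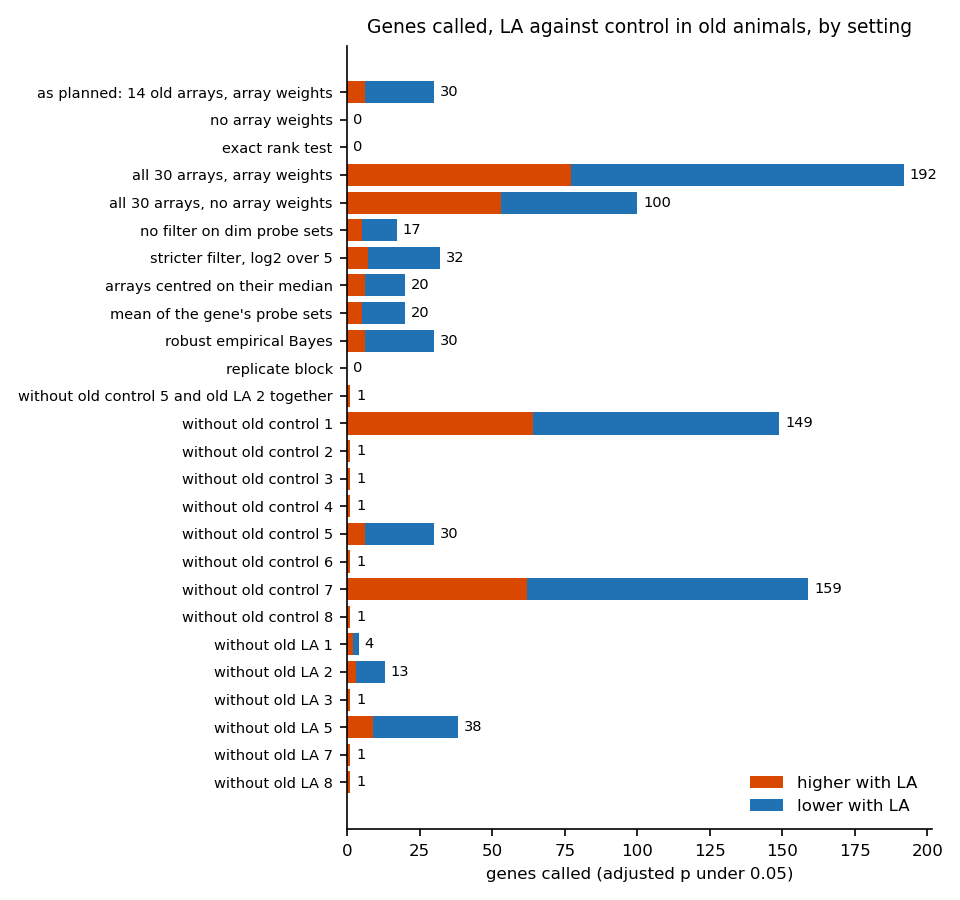
Number of genes called (x axis; adjusted p under 0.05) for LA against control in old animals under each setting (y axis), split into genes higher and lower with LA. The planned setting gives 30; removing old control 1 or old control 7 gives 149 or 159, and removing any of 8 other animals leaves 1.

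Among the called genes, the clock repressor Per2 had the largest difference in old liver. Its product inhibits the dimer of Bmal1 and Clock. Per2 ranged from 5.75 through a median of 8.45 to 9.31 in the 8 old control animals, and from 3.83 through 4.84 to 5.32 in the 6 old LA animals. Every LA animal lay below every control, although old controls 1 (5.75) and 7 (5.76) were close to the LA values. Per2 fell by 3.35 ± 0.52, or 10.2-fold (limma adjusted p = 0.0391). It was also called without old control 1, 5 or 7 and without old LA 2 or 5, but not without any of the other 9 animals, and over all single removals its adjusted p ran from 0.00146 to 0.141. A second probe set of Per2 differed by only -0.48.

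The promoters of 3 clock genes are shown because they carry a motif of the clock factors named above; each is the 250 bases before the RefSeq start site on assembly GRCr8, 5′ to 3′ on the gene's strand, with the motif in capitals. Motifs were searched on both strands. Per2 (chr9:99496994-99497243, minus strand) holds a D-box, TTATGTAA, to which Dbp, Tef, Hlf and the repressor Nfil3 can bind. Bmal1 (chr1:176766078-176766327, plus strand) holds the core AGGTCA of the element bound by Rev-erb and ROR receptors, and Tef (chr7:115206577-115206826, plus strand) holds an E-box, CACGTG, the element of the Bmal1 dimers.
Per2: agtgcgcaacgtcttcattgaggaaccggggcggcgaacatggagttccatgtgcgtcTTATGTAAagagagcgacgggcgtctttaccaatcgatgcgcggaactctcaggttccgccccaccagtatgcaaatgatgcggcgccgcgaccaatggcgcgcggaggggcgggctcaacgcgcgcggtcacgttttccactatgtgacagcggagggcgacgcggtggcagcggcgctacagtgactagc
Bmal1: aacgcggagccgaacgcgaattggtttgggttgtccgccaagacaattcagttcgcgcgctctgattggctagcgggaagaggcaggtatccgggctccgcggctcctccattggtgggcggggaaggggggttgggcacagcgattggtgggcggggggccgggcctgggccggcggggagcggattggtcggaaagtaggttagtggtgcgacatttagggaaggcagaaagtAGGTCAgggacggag
Tef: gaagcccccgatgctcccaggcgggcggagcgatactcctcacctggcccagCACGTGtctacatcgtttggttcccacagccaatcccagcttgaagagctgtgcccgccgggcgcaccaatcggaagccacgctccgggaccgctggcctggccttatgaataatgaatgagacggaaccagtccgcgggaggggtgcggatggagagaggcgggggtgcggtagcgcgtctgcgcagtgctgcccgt
The motifs begin 192, 15 and 198 bases before the start site, in that order. Of 14 clock genes with a promoter in the RefSeq table, 1 held the D-box (TTATGTAA or TTACGTAA), 3 the AGGTCA core and 2 the E-box; among all 33469 promoters the shares were 0.932%, 14.1% and 5.59%. These matches describe letters in this window and not binding.

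Other members of the Per and Dbp phase lay in the same direction without passing the threshold. Dbp, a circadian activator of metabolic genes, ranged from 6.37 through 11.00 to 11.61 in old control and from 5.96 through 6.46 to 8.71 in old LA animals. Again old controls 1 (7.64) and 7 (6.37) lay among the LA values, as did old control 5 (8.70), and the other 5 controls were above every LA animal. The difference was -3.59 ± 0.80 (limma adjusted p = 0.0705). It passed without old control 1 (-4.13, adjusted p = 0.0168) or old control 7 (-4.16, adjusted p = 0.0122). Leaving out a control that lies among the LA values widens the difference by construction, so these passes do not support it. Without old LA 5 the difference of Dbp was -3.36 (adjusted p = 0.108). Tef, a relative of Dbp, ranged from 6.53 through 8.65 to 9.22 in old control and from 6.20 through 6.89 to 7.30 in old LA animals, so that of the controls only number 7 lay within the LA range. Its difference was -1.76 ± 0.36 (limma adjusted p = 0.0574).

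Most other genes of this phase were also lower without passing. Nr1d2 (Rev-erbβ) had -1.32 ± 0.30 (limma adjusted p = 0.0724), the period gene Per3 -1.85 ± 0.46 (adjusted p = 0.0967), the Dbp relative Hlf -1.53 ± 0.42 (adjusted p = 0.119), Cry2 -0.90 ± 0.25 (adjusted p = 0.134) and the deubiquitinase Usp2 -1.89 ± 0.44 (adjusted p = 0.0748). A second probe set differed by only -0.50 for Per3 and -0.21 for Cry2. The other probe sets of Nr1d2, Hlf and Usp2 lay between -1.53 and -1.32. Per1 differed by 0.09 ± 0.33, and Nr1d1 (Rev-erbα) by -1.36 ± 0.70 (adjusted p = 0.416) with old LA values from 3.55 to 8.34. Per1 changed sign with equal weights (-0.26). Of the 11 measured genes of this phase, 1 fell (Per2), and the median difference was -1.53, beside 0.0054 over all genes. At an unadjusted p under 0.05, 9 (81.8%) were lower with LA, beside 6.88% of all genes. Without old control 1, 8 of the 11 were called, and without old control 7, 9. Without old control 2, 3, 4, 6 or 8, or old LA 1, 3, 7 or 8, 0 were called.

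The activators of the clock were higher with LA, but again short of the threshold. Bmal1 ranged from 4.23 through 5.53 to 8.20 in old control and from 7.43 through 8.49 to 8.92 in old LA animals. The values of old controls 1 (8.08) and 7 (8.20) lay inside the LA range, old control 5 (7.08) was next, and the other 5 controls were at or below 5.63. The difference was 2.55 ± 0.58 (limma adjusted p = 0.0724). It passed without old control 1 (3.00, adjusted p = 0.0164) or old control 7 (2.94, adjusted p = 0.0168). Leaving out a control with LA-like values widens the difference by construction, so these passes do not support it. Without old control 8 the difference of Bmal1 was 1.93 (adjusted p = 0.239). Npas2, which can replace Clock as partner of Bmal1, had 2.81 ± 0.77 (adjusted p = 0.120), with old control values from 3.16 to 9.17 and old LA values from 7.30 to 9.43. Clock itself had 0.59 ± 0.19 (adjusted p = 0.159), Nfil3 0.29 ± 0.13 (adjusted p = 0.335) and Cry1, which is expressed late in the cycle, -0.14 ± 0.27 (adjusted p = 0.880). Of the 5 measured genes of the Bmal1 phase, limma called 0, and the list median was 0.59. At an unadjusted p under 0.05, 4 (80%) were higher, beside 6.62% of all genes.

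Old controls 1 and 7 lay within or near the LA range for these genes, with Tef of old control 1 (7.56) just above it and Per2 of both above it, and the plot of clock genes by animal shows them. The summed position of an animal on the Per and Dbp list, as the mean of its members relative to the old control mean, was -0.95 in old control 1, -1.29 in old control 7 and -0.53 in old control 5, and 0.44 to 0.65 in the other 5 controls. The LA animals lay between -2.14 and -0.90. Whether the time of collection or feeding differed between these animals was not tested. Of 12 measured clock output genes, limma called 0. At an unadjusted p under 0.05, 6 were lower and 2 higher, 66.7% together beside 13.5% of all genes. These include the P450 reductase Por (-0.97 ± 0.27, adjusted p = 0.122) and the mitotic kinase Wee1 (-1.18 ± 0.34, adjusted p = 0.137).

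**Figure D2:**
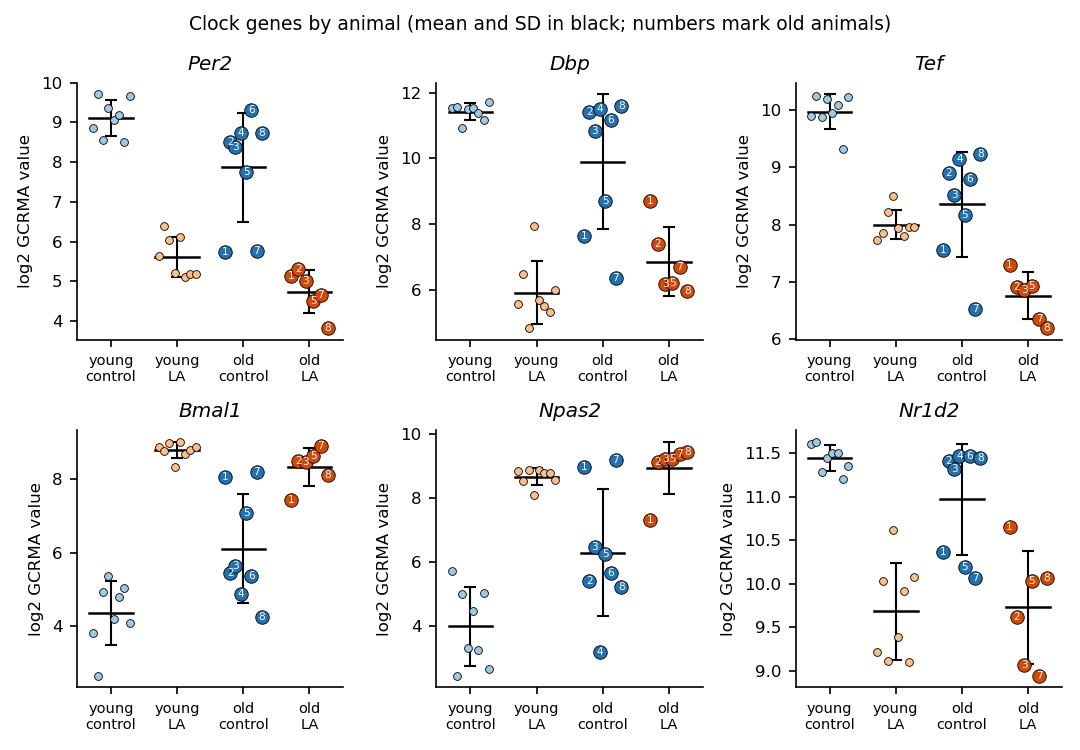
Log2 GCRMA value (y axis) of 6 clock genes in each animal of the 4 groups (x axis); points are animals, numbers mark old animals, and bars are mean and SD. Old controls 1 and 7 lie near the old LA animals in all 6 genes, with Per2 at 5.75 and 5.76 and Bmal1 at 8.08 and 8.20.

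Genes that make fatty acids and triglycerides were lower in most old LA animals. Acaca, which encodes acetyl-CoA carboxylase 1, the committed step of fatty acid synthesis, ranged from 9.37 through 11.98 to 13.05 in old control and from 9.69 through 9.98 to 11.37 in old LA animals. The low end of the controls was number 5 alone, the next control was at 11.10, and old LA 5 (11.37) was the only LA animal above 10.3. Acaca fell by 1.81 ± 0.33, or 3.51-fold (limma adjusted p = 0.0391), and its second probe set differed by -2.17. Mid1ip1, whose product promotes assembly of acetyl-CoA carboxylase, ranged from 9.24 through 11.27 to 11.65 in old control and from 9.53 through 10.11 to 10.37 in old LA animals. Old control 5 lay below the LA animals, old control 7 among them, and the other 6 controls above them. Mid1ip1 fell by 1.09 ± 0.20 (adjusted p = 0.0392). Both genes were called without old control 1, 5 or 7, and Acaca also without old LA 5. In all, Acaca was called in 4 of 14 single removals and Mid1ip1 in 3 of 14. Neither was called when old LA 2 and old control 5 were left out together.

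The remaining lipogenic enzymes had differences of similar or larger size that did not pass. ATP citrate lyase (Acly), the source of cytosolic acetyl-CoA, had -1.42 ± 0.31 (limma adjusted p = 0.0663). Thrsp, a thyroid hormone-responsive lipogenic regulator, ranged from 12.91 through 15.21 to 15.63 in old control and from 11.30 through 12.48 to 14.26 in old LA animals, with a difference of -1.95 ± 0.45 (adjusted p = 0.0748). The lipid droplet protein gene Pnpla3 had the largest difference of the list, -3.16 ± 0.73 (adjusted p = 0.0748). It ranged from 5.06 to 10.73 in old control, where numbers 5 and 7 were as low as the LA animals, and from 4.40 to 7.65 in old LA animals.

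Fatty acid synthase (Fasn) had -1.79 ± 0.48 (adjusted p = 0.117), the elongase Elovl6 -2.36 ± 0.60 (adjusted p = 0.0992), the mitochondrial carboxylase gene Acacb -1.31 ± 0.39 (adjusted p = 0.148), the desaturase Scd -1.01 ± 0.37 (adjusted p = 0.239) and Srebf1, which encodes SREBP-1, -0.84 ± 0.30 (adjusted p = 0.225). Old LA 5 was the highest LA animal for Acaca, Fasn, Elovl6, Acacb, Acly, Pnpla3, Thrsp and Scd. Without it, Fasn (-2.32, adjusted p = 0.0396), Pnpla3 (-3.75, adjusted p = 0.0434) and Thrsp (-2.30, adjusted p = 0.0429) passed. Leaving out the highest LA animal widens these differences by construction, so the passes do not support them. Without old control 5, Fasn (-1.85, limma adjusted p = 0.106), Pnpla3 (-3.24, adjusted p = 0.0750) and Thrsp (-1.98, adjusted p = 0.0753) did not pass. Malic enzyme (Me1) differed by -0.11 ± 0.39. Its sign turned when old control 3, old LA 1, old LA 3 or old LA 8 was left out.

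Of the 27 measured genes of this list, 2 fell (Acaca and Mid1ip1), 22 had a difference below 0, and the median was -0.75. At an unadjusted p under 0.05, 14 were lower and 3 higher, 63.0% together beside 13.5% of all genes. The called count of the list was 6 without old control 1, 8 without old control 7 and 7 without old LA 5, and 0 without old control 2, 3, 4, 6 or 8 or old LA 1, 2, 3, 7 or 8. On the mean of the list relative to the old control mean, old control 5 (-1.46) was as low as the lowest LA animal, old LA 2 (-1.50). Old control 7 (-0.65) was close to old LA 3 (-0.69), and the remaining controls lay between -0.024 and 0.75. Old LA 5 (0.024) lay among the controls. Of 18 measured cholesterol synthesis and uptake genes, limma called 0 and 0 had an unadjusted p under 0.05, with a median of -0.092.

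**Figure D3:**
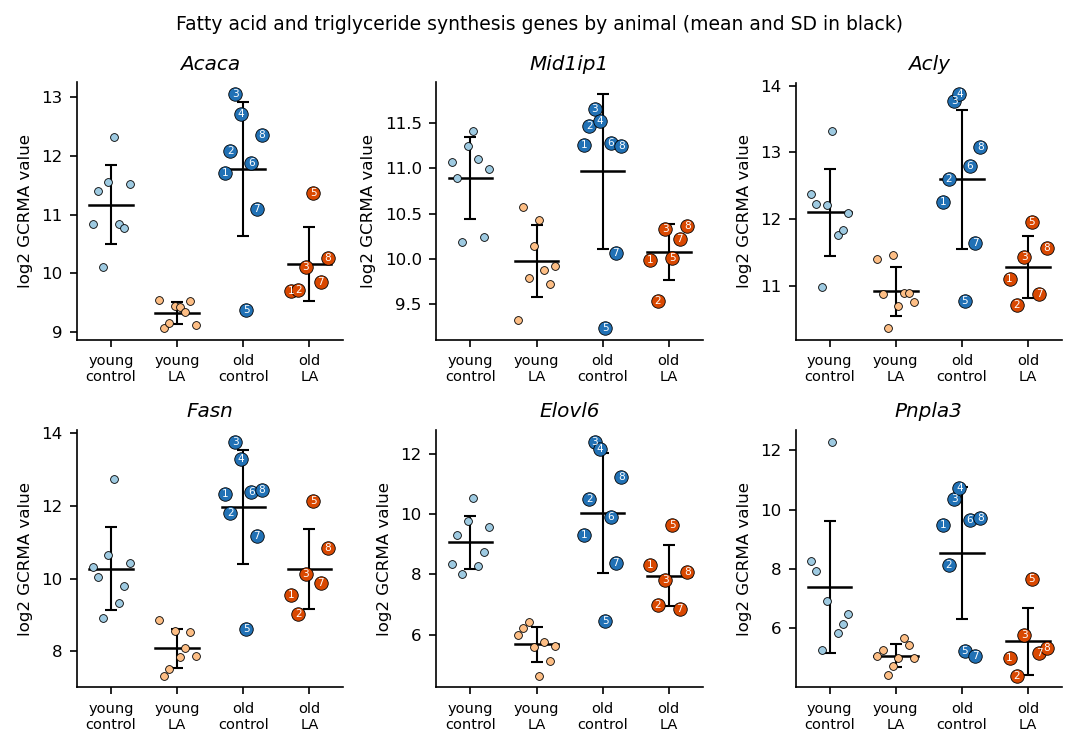
Log2 GCRMA value (y axis) of 6 genes of fatty acid and triglyceride synthesis in each animal of the 4 groups (x axis); points are animals, numbers mark old animals, and bars are mean and SD. For Acaca old control 5 (9.37) lies below all old LA animals and old LA 5 (11.37) lies highest among them.

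Cyp3a9 was the call kept in the most settings. It encodes a member of the CYP3A family of drug- and steroid-metabolising P450 enzymes. It ranged from 8.45 through 9.43 to 10.74 in old control and from 10.58 through 11.15 to 11.86 in old LA animals. The groups overlapped because old control 5, the highest control, lay above old LA 2, the lowest LA animal. Cyp3a9 rose by 2.06 ± 0.24, or 4.18-fold (limma adjusted p = 0.00544), and it was called in all 14 single removals (adjusted p = 0.00243 to 0.0293). It was not called with equal weights, by the exact rank test or with the replicate number as a block. Cyp3a23-3a1, a close relative that can share probe sequence with it, differed by 0.45 ± 0.14 (adjusted p = 0.152). Of 16 measured genes of xenobiotic P450 enzymes and their receptors, 1 rose (Cyp3a9), where 0.276% of all genes were called. At an unadjusted p under 0.05, 2 were higher and 2 lower, 25% together beside 13.5% of all genes.

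Insig2 was the other metabolic regulator called higher. It ranged from 11.86 through 12.18 to 13.02 in old control and from 12.61 through 13.44 to 13.67 in old LA animals. Old LA 2, the lowest of its group, was the only LA animal below the highest control. Insig2 rose by 1.11 ± 0.16, or 2.16-fold (limma adjusted p = 0.0391), its second probe set differed by 0.94, and it passed in 6 of 14 single removals. Among bile acid genes, Cyp7a1, the rate-limiting enzyme of bile acid synthesis, had -2.08 ± 0.73 (adjusted p = 0.217; -1.05 with equal weights) and spread from 5.43 to 11.50 in old control and from 5.31 to 12.10 in old LA animals. Cyp8b1, the sterol 12α-hydroxylase, had 0.63 ± 0.18 (adjusted p = 0.133) and the phospholipid exporter Abcb4 0.64 ± 0.25 (adjusted p = 0.257). Limma called 0 of the 17 measured genes of that list. At an unadjusted p under 0.05, 3 were higher and 1 lower, 23.5% together beside 13.5% of all genes.

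The remaining called genes were of mixed function. Lama3, the laminin α3 chain of basement membranes, ranged from 7.70 through 9.15 to 10.37 in old control and from 6.75 through 7.04 to 7.79 in old LA animals. It fell by 2.07 ± 0.37 (limma adjusted p = 0.0391), and 1 LA animal lay just above the lowest control. Mknk2, a kinase of the translation factor eIF4E, ranged from 10.05 through 10.75 to 11.09 and from 8.82 through 9.72 to 10.56 in the same order. It fell by 1.11 ± 0.19 (adjusted p = 0.0391) with old LA 2, at 10.56, among the controls.

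Among the other genes that fell were the microtubule end-binding genes Mapre2 (-0.93 ± 0.17) and Mapre3 (-0.61 ± 0.11), the microtubule-associated Mtus1 (-0.66 ± 0.13), the focal adhesion gene Tns2 (-0.81 ± 0.14) and the membrane-bending Pacsin2 (-0.62 ± 0.11). All Mapre2 values of the LA animals (6.78 to 7.47) lay below those of the controls (7.62 to 8.55). A second probe set of Mapre3 differed by 0.03, so its call rests on 1 probe set. Also lower were Ttc7b, which anchors a phosphatidylinositol kinase (-0.84 ± 0.15), the oxysterol-binding relative Osbpl11 (-0.82 ± 0.16), the kinase Stk35 (-0.82 ± 0.15), the Wnt pathway gene Dixdc1 (-0.76 ± 0.12) and the choline transporter Slc44a1 (-0.53 ± 0.10), whose 2 other probe sets differed by -0.04 and -0.30.

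The 9 called genes with smaller decreases were Pals1, Dcun1d1, Tmed8, Klf16, Akt1, Lrrc8d, Smap2, Sertad2 and Oxr1, named here after their values were seen. Other probe sets differed by -0.088 and -0.27 for Dcun1d1, -0.15 for Sertad2, -0.29 for Pals1, -0.32 and -0.29 for Smap2 and -0.45 for Akt1. Akt1, the kinase downstream of the insulin receptor, ranged from 11.23 through 11.51 to 11.65 in old control and from 10.88 through 11.10 to 11.19 in old LA animals, without overlap. It fell by 0.45 ± 0.08 (limma adjusted p = 0.0391). Over all genes, 25 (0.23%) had groups that did not overlap, and 8 of the 30 called genes were among them: Per2, Mapre2, Osbpl11, Klf16, Akt1, Lrrc8d, Smap2 and Oxr1.

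On the higher side, the ETS-family repressor Etv6 ranged from 4.35 through 4.91 to 5.97 in old control and from 5.90 through 6.17 to 6.51 in old LA animals. It rose by 1.21 ± 0.22 (limma adjusted p = 0.0392), with 1 control above the lowest LA animal. The proteasome assembly gene Psmd9 rose by 0.70 ± 0.13, the ubiquitin ligase receptor gene Dcaf11 by 0.63 ± 0.12 and Tmem140 by 0.61 ± 0.11, with adjusted p = 0.0391, 0.0482 and 0.0391.

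Among the other pathway lists limma called 0 members, and differences are given as measured; the share of members with an unadjusted p under 0.05 is set beside that of all genes (13.5%; 6.62% higher and 6.88% lower). Interferon-stimulated genes had 13 of 26 members (50%) higher at that level, 24 of 26 differences above 0 and a median of 0.47. Isg15, a ubiquitin-like protein of the interferon response, ranged from 8.99 through 10.01 to 10.50 in old control and from 10.25 through 10.59 to 12.65 in old LA animals (1.25 ± 0.37, limma adjusted p = 0.15). Rsad2 (viperin) had 1.58 ± 0.48 (adjusted p = 0.156), Ifi44 0.43 ± 0.12 (adjusted p = 0.131) and the GTPase Igtp 0.57 ± 0.17 (adjusted p = 0.148). The interferon-induced chemokine Cxcl10 had 1.52 ± 0.61 (adjusted p = 0.275). The list mean of the LA animals ran from -0.020 to 0.95 and that of the controls from -0.59 to 0.41, so the groups overlapped. All 12 MHC class II genes had differences above 0 (median 0.40), none with an unadjusted p under 0.05.

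Genes of energy and amino acid metabolism gave 0 calls. Of 27 measured oxidative phosphorylation genes, 25 had differences above 0, 6 (22.2%) with an unadjusted p under 0.05, and the median was 0.10. The 6 became 1 without old LA 5, 3 without old LA 7 or with centred arrays, and 2 with the replicate block. Under the other settings the count was 5 to 7. The complex I subunit Ndufb5 had 0.22 ± 0.07 and the cytochrome oxidase subunit Cox6a1 0.21 ± 0.08. Of 19 genes of amino acid catabolism and the urea cycle, 6 were higher and 1 lower at an unadjusted p under 0.05, 36.8% together (median 0.14). These included homogentisate dioxygenase, Hgd, of tyrosine breakdown (0.55 ± 0.13, limma adjusted p = 0.0741), Aass of lysine breakdown (0.66 ± 0.17) and cystathionine γ-lyase, Cth (0.69 ± 0.25). Of 21 genes of gluconeogenesis and fasting, 1 was higher (Pck1, the gluconeogenic carboxykinase, 0.43 ± 0.13, adjusted p = 0.149) and 2 lower at an unadjusted p under 0.05, together 14.3% and near the 13.5% of all genes; the lower ones include the glucose transporter gene Slc2a2 (-0.59 ± 0.12, adjusted p = 0.0625). Of 25 genes of fatty acid oxidation and PPARα targets, 5 (20%) were higher at that level, led by the fasting hormone Fgf21 (1.26 ± 0.42) and carnitine acetyltransferase, Crat (0.64 ± 0.23). That count depended on the array weights: with equal weights or by the exact rank test, 0 of the 25 had an unadjusted p under 0.05. Cpt1a, the carnitine palmitoyltransferase of liver mitochondria, had -0.16 ± 0.15.

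The enzyme complexes that carry lipoic acid, and the antioxidant genes often linked to it, gave 0 calls. Of 20 genes for making lipoate or building the lipoylated complexes, limma called 0, with 2 higher and 2 lower (20% together) at an unadjusted p under 0.05. The higher ones were the branched-chain dehydrogenase subunit Bckdhb (0.27 ± 0.08) and the glycine decarboxylase Gldc (0.91 ± 0.40), and the lower ones the pyruvate dehydrogenase subunits Pdha1 (-0.26 ± 0.10) and Pdhb (-0.29 ± 0.11). Of 25 NRF2 target and glutathione genes, 1 was higher and 1 lower at that level (8%, below the share of all genes). Gclc, the catalytic subunit of glutathione synthesis, had -0.17 ± 0.15, the quinone reductase Nqo1 -0.11 ± 0.26 and haem oxygenase, Hmox1, 0.19 ± 0.43, and the signs of Nqo1 and Hmox1 changed under some settings.

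Of 16 cytosolic heat shock genes, 14 had differences below 0, 3 (18.8%) with an unadjusted p under 0.05 (median -0.18), and limma called 0. Hspa1a, the inducible HSP70, ranged from 5.09 through 6.35 to 8.87 in old control and from 4.67 through 4.81 to 5.40 in old LA animals (-1.26 ± 0.42, limma adjusted p = 0.181). Of 23 endoplasmic reticulum stress genes, 8 had differences above 0, and 3 were lower and 1 higher at that level (17.4% together). The lower ones were Edem1 (-0.79 ± 0.22) and Herpud1 (-0.60 ± 0.17) of protein degradation and the chaperone Hsp90b1 (-0.30 ± 0.08). The higher one was the pseudokinase Trib3 (1.40 ± 0.44). Other probe sets of Edem1 differed by -0.59 and -0.21.

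Markers of cell types were compared in the same way, and limma called 0 of them. At an unadjusted p under 0.05, which 13.5% of all genes had, both measured B and plasma cell markers were higher. So was 1 of 5 exocrine pancreas markers (20%), and 1 of 3 adipocyte markers (33.3%) was lower. None of the 7 genes of the skeletal muscle list was measured. Myh1, a muscle myosin gene outside that list, was measured and is given under the other observations. Hepatocyte markers (11 of 12 measured) had a median difference of 0.030, and none had an unadjusted p under 0.05. T and NK cell markers (14 of 18 measured) had a median of -0.20, and their list mean relative to the old control mean ran from -1.79 (old control 8) to 2.15 (old control 5) in controls and from -1.98 (old LA 7) to 1.38 (old LA 2) in LA animals. Kupffer cell and macrophage markers (11 of 14 measured) had a median of 0.47, with a range of -1.06 to 1.11 in controls and -0.26 to 1.29 in LA animals, the highest of each being old control 5 and old LA 2. MHC class II genes followed the same 2 animals (2.02 and 2.12), and the 2 measured neutrophil markers were highest in old control 5 (5.31). The part of these cells in the results was not tested; old control 1 and old control 7, the controls with LA-like clock genes, had T and NK cell values of -0.56 and 1.27.

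Set against the young animals, whose arrays are separate, the old comparison had fewer calls. In young liver limma called 1910 genes (17.6%), 1002 higher (9.22%) and 908 lower (8.35%) with LA. All 30 genes called in old liver had the same sign there, and 26 of them were called (86.7% of the old list and 1.36% of the young list), where 65.4% of all genes had the same sign at both ages, as the plot of both differences shows. Those not called in young liver were Dixdc1, Tmed8, Lrrc8d and Sertad2; Lrrc8d differed by -0.01 ± 0.07 there.

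The genes called in young liver were read in the old animals as well. Of the 1002 higher ones, 845 (84.3%) had a difference above 0 in old liver, where 51.4% of all genes did, with a median of 0.39 in young and 0.18 in old animals. Of the 908 lower ones, 787 (86.7%) were below 0 in old liver, against 48.6% of all genes, with medians of -0.39 and -0.22. Both sets were chosen by the young values.

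**Figure D4:**
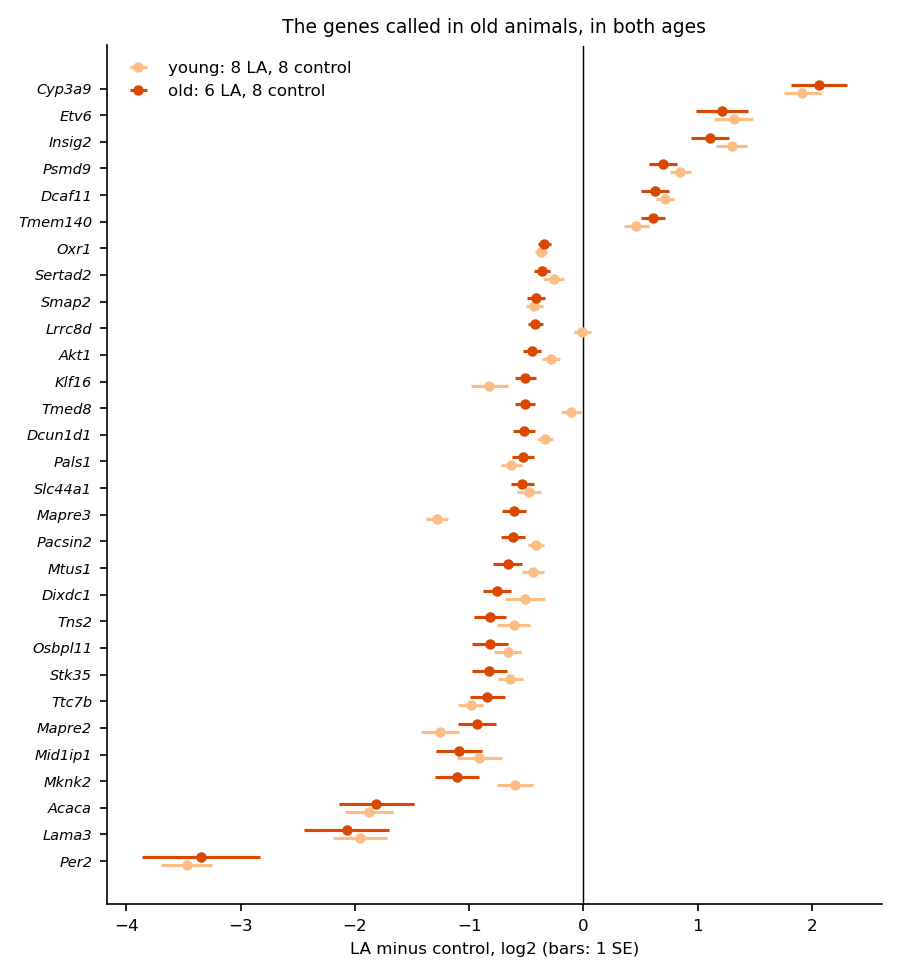
LA minus control difference on the log2 scale (x axis; points with bars of 1 SE) of the 30 genes called in old liver (y axis), in old animals (6 LA, 8 control) and young animals (8 LA, 8 control). Cyp3a9 is at 2.06 in old liver and Per2 at -3.35, and the signs are the same at both ages for all 30 genes.

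The test of the age difference itself, LA effect in old minus LA effect in young animals, called 9 genes (0.0828%; 876 at an unadjusted p under 0.05), none of them called in old liver. The carnitine palmitoyltransferase gene Cpt1b, the form of muscle and heart, ranged from 4.13 through 4.99 to 5.21 in old control and from 4.71 through 5.21 to 5.86 in old LA animals. Its difference was 0.32 ± 0.20 in old and 2.99 ± 0.27 in young animals, and the 2 effects differed by -2.65 ± 0.40 (limma adjusted p = 0.0027). Nampt, the rate-limiting enzyme of NAD salvage, ranged from 10.70 through 11.57 to 11.91 in old control and from 10.68 through 10.84 to 11.59 in old LA animals, a difference of -0.54 ± 0.20 against -2.28 ± 0.16 in young animals. These differed by 1.73 ± 0.27 (adjusted p = 0.0027). Chrna2, an acetylcholine receptor subunit, is 1 of the 9 but was at or below 3.56 in all old animals, under the floor of 4. It passed the filter through young animals alone, so no difference was measured in old liver and no size is given for it.

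The clock repressor Bhlhe40 ranged from 8.64 through 9.72 to 11.92 in old control and from 7.85 through 8.34 to 9.16 in old LA animals, with old control 5 far above the others. Its difference was -1.12 ± 0.25 in old and -2.62 ± 0.16 in young animals, and the effects differed by 1.48 ± 0.30 (limma adjusted p = 0.0438), a call lost without old control 1, 2 or 7 or old LA 1, 2, 5, 7 or 8. The acyl-CoA synthetase gene Acsl5 had 0.00 ± 0.12 in old and -0.94 ± 0.13 in young animals, and Lrpprc, a regulator of mitochondrial RNA, -0.07 ± 0.12 and 0.81 ± 0.10. The other 3 genes were Pcp4l1 (-1.84 ± 0.33), Utrn (-1.03 ± 0.21) and Plaat3 (0.79 ± 0.15), each value being the difference between the effects. For Per2 (0.09 ± 0.53), Acaca (0.07 ± 0.40), Cyp3a9 (0.15 ± 0.30) and Insig2 (-0.17 ± 0.22) the effects at the 2 ages differed by less than 1 SE, which does not show that they were equal. The count of 9 was 3 with equal weights, 0 with the replicate number as a block, 3 without old LA 1 and 5 without old LA 7.

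**Figure D5:**
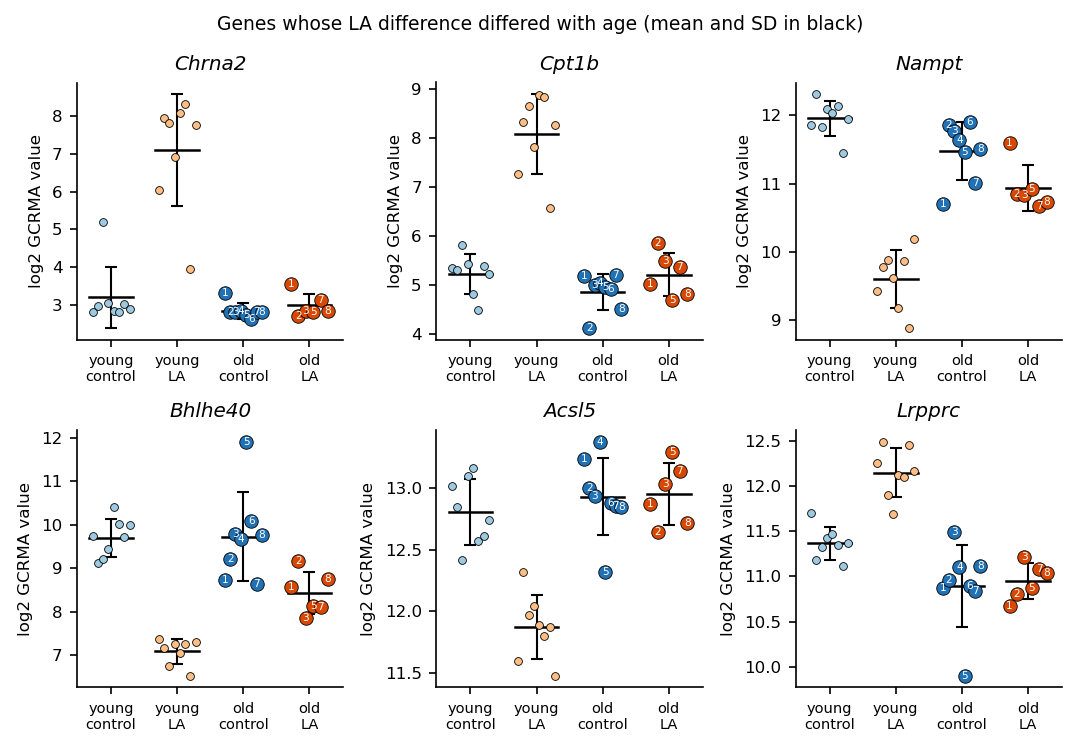
Log2 GCRMA value (y axis) of 6 of the 9 genes called by the test of the age difference, in each animal of the 4 groups (x axis). Points are animals, numbers mark old animals, and bars are mean and SD. Chrna2 is under the floor of 4 in all old animals, so its old difference was not measured. The young groups stand apart while the old groups overlap; for Cpt1b the difference is 2.99 in young and 0.32 in old animals.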

How the data were processed

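The 14 old liver arrays were compared by diet, with the 16 young arrays beside them. The deposited values are log2 intensities per probe set that the authors made with GCRMA (background, normalization and summary), per the submitters' processing notes; further steps are not given in the sources used here. Probe sets with a value over 4 on at least 6 of the 30 arrays were kept (19762 of 31099, 15012 naming 1 gene), and the probe set with the highest mean stood for its gene, which left 10869 genes. Of 31099 probe sets, 20826 named 1 gene, 436 several and 9780 none, and 57 were controls; 20758 of those with 1 gene had a current RefSeq identifier. Array medians lay between 5.20 and 5.46. Limma 3.58.1 (R 4.3.3; lmFit, arrayWeights, eBayes) was fitted to the old arrays, with Benjamini-Hochberg adjusted p under 0.05 as the threshold. The age difference was the interaction over all 30 arrays. The script was tested on simulated data. No read depth exists for arrays; their number limits the precision.

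Named genes were the 15 largest called differences each way, up to 4 members of each list by p, a set of clock and metabolic genes, and the 5 largest interaction differences each way. The members and the 36 lists (631 entries) were chosen with earlier results of these data known. Alternatives were equal weights, an exact rank test, all 30 arrays, other filters, centring, the mean of probe sets, robust moderation, a replicate block and left-out animals.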

Additional observations from a re-analysis of the deposited data

Results flagged for a closer look

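In 27 of 244 combinations of a named gene and an old group (11.1%), the extreme animal lay farther from the rest than Dixon's test allows at its 95% value, where chance gives about 1 in 20. Of these, 15 were old control 5. Its values were high for Bhlhe40 (11.92), Fgf21 (11.25), Gldc (11.98), Hmox1 (14.08), Pdk4 (13.87) and Pnpla2 (10.96). They were low for Acacb (3.19), Agmat (9.78), Cdk10 (7.35), Cth (8.85), Dcaf11 (10.80), Dcun1d1 (7.90), Igtp (9.60), Lrpprc (9.90) and Slc2a2 (13.09). With a weight of 0.11 this animal had little part in the fitted differences.

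Old LA 5 was high for Acaca (11.37), Acacb (6.87) and the pyruvate dehydrogenase kinase Pdk4 (13.63). Old LA 1 was low for Npas2 (7.30) and Nfil3 (9.36) and high for Nampt (11.59), each on the side of the controls. Old LA 3 was high for Cdkn1a (11.34) and Rsad2 (11.93), old LA 7 for Spsb3 (8.95), old LA 2 was low for Crat (8.75), old control 6 low for Cyp8b1 (13.04), and old control 1 high for Chrna2 (3.32), under the floor.

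The LA effect differed between the ages for 9 genes by the interaction test. Old minus young effect was -4.05 for Chrna2, whose old values are all under the floor so that this is no measured size, -2.65 for Cpt1b, -1.84 for Pcp4l1, -1.03 for Utrn, -0.89 for Lrpprc, 0.79 for Plaat3, 0.95 for Acsl5, 1.48 for Bhlhe40 and 1.73 for Nampt.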

How the results depend on the processing

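The 30 genes called in old liver became 0 with equal weights, the exact rank test or the replicate block (1179 at an unadjusted p under 0.05 with the block), 192 and 100 with all 30 arrays with and without weights, 17 without a filter, 1 without old control 5 and old LA 2 together and 1 of 19762 probe sets, and lay between 1 and 159 when single animals were left out. Gene list members called (4) were 0, 0 and 0 in the first 3 settings, 26 and 14 with 30 arrays, 2 without a filter, 1 without both animals, and 1 to 23 with single animals left out. The 9 genes that differed with age were 3 with equal weights, 0 with the replicate block, and 3 to 13 with single animals left out. The young count stayed within 1.5 times of 1910 in each of its 5 alternatives. The labels do not say what the replicate numbers mark. The block fits of old animals left out old controls 4 and 6, which have no old LA animal of the same number. In old animals the correlation of same-numbered animals ran from -0.57 to 0.51, and only number 3 correlated best with its own. For young animals it ran from 0.071 to 0.29, with 7 of 8 numbers correlating best with their own, a hint from the data and not the design, and number 2 too low to count all as pairs. So few old animals, with old control 5 and old LA 2 standing apart, cannot decide whether the numbers mark pairs. Centring moved the median difference of all genes by 0.0010. The cause of these changes was not tested, beyond that fewer animals or probe sets enter some settings. Signs of uncalled genes near 0 turned in places. With equal weights, on 14 or 30 arrays, Hmox1 was -0.098, Lrpprc 0.051, Pdk4 -0.20 and Per1 -0.26; by difference of medians beside the rank test they were -0.56, 0.025, -0.45 and -0.24. With the replicate block Acsl5 was -0.00769, Cry1 0.060, Nqo1 0.047, Pdk4 -0.42, Per1 -0.30 and Plaat3 0.069. Acsl5 was -0.000359 with the stricter filter and -0.16 as the mean of probe sets, where Lrpprc was 0.050. With single animals left out, Acsl5 ran from -0.092 to 0.064, Hmox1 from -0.29 to 0.38, Me1 from -0.56 to 0.052, Nqo1 from -0.32 to 0.015, Pdk4 from -0.31 to 0.26 and Per1 from -0.18 to 0.24.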

Other observations

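Of the 25 genes whose old groups did not overlap (0.23% of those tested), 17 were not called by limma; they are named here after their values were seen. Lower in every LA animal were Ankrd12 (-0.57 ± 0.11), the tyrosine kinase Abl1 (-0.50 ± 0.11) and the translation elongation factor Eef2 (-0.21 ± 0.05). A second probe set differed by only -0.13 for Ankrd12 and by 0.048 for Eef2, so these differences rest on 1 probe set each. Higher in every LA animal were 2 mitochondrial ribosomal protein genes, Mrps34 (0.21 ± 0.07) and Mrps18a (0.23 ± 0.06), the translation initiation factor subunit Eif2b4 (0.24 ± 0.07), the mitochondrial outer membrane iron-sulphur protein gene Cisd1 (0.42 ± 0.10), the interferon-inducible Parp12 (0.42 ± 0.09) and Agmat (0.51 ± 0.13). The other 8 higher genes were Cdk10 (0.18 ± 0.06), Gpn1 (0.27 ± 0.07), Tmem42 (0.29 ± 0.07), Rhbdd3 (0.32 ± 0.09), Mettl26 (0.37 ± 0.08), Myh1 (0.47 ± 0.11), Spsb3 (0.50 ± 0.10) and Sat2 (0.86 ± 0.20). Cisd1 ranged from 12.28 to 12.91 in old control and from 12.95 to 13.29 in old LA animals, and Parp12 from 8.40 to 9.14 and from 9.17 to 9.49. For both, the gap between the groups was narrow. The adjusted p of the 17 genes lay between 0.0539 (Ankrd12) and 0.194 (Cdk10). In young liver, the differences of Ankrd12 (-0.70), Eif2b4 (0.22), Cisd1 (0.44), Parp12 (0.25) and Agmat (0.55) were called with the same sign. Those of Abl1 (-0.35), Eef2 (-0.07), Mrps34 (0.10) and Mrps18a (0.05) were not.

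The cell cycle inhibitor Cdkn1a ranged from 7.74 to 11.02 in old control and from 10.04 to 11.34 in old LA animals (0.84 ± 0.39, limma adjusted p = 0.370), against 3.38 ± 0.34 in young animals, where it was called. The test of that difference between the ages gave -2.51 ± 0.56 (limma adjusted p = 0.0967). A second probe set of Cdkn1a differed by 1.155 ± 0.364 in old animals and was not part of that test. Metallothioneins, the metal-binding stress proteins, had 0.37 ± 0.19 (Mt1) and 0.79 ± 0.44 (Mt2A), and the zinc transporter Slc39a14 -0.32 ± 0.08 (limma adjusted p = 0.0955). A second probe set of Slc39a14 differed by 0.069, in the other direction.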
